A study of Mus musculus with 35 samples.

Results

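The comparison described here set mouse cells without DNA methyltransferases against their parental line after 1 day of differentiation towards epiblast-like cells (EpiLC), by chromatin accessibility. DNMT_KO cells carried a triple knockout of Dnmt1, Dnmt3a and Dnmt3b, and DNMT_WT cells were the parental wild-type line. Each line gave 3 libraries at day 1 (D1), so the comparison used 6 of the 35 libraries of the series. The columns were chosen by line and day, and autosomal 2-kb tiles empty in every D0 and D2 library were left out. The series also held a TET family, with TET_KO cells lacking Tet1, Tet2 and Tet3 and their own parental line (TET_WT), each sampled as naive embryonic stem cells in 2i and Lif (D0) and after 1 and 2 days as EpiLC. ATAC-seq, in which the Tn5 transposase places sequencing adapters into open DNA, was run on 10000 cells per library. The series title names the question: how turnover of DNA methylation at the exit from pluripotency prepares regulatory elements for the blood lineage. The labels do not say whether replicates came from separate cultures, or whether DNMT_KO is a single clone. The p-values therefore measure only the spread between libraries of a group, pooled over all 35 libraries.

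DNA methyltransferases add a methyl group to cytosine, in mammals mostly where it precedes guanine (CpG). Dnmt3a and Dnmt3b place new methylation, and Dnmt1 copies it to the new strand after replication. Mouse embryonic stem cells can live without all of these enzymes. Naive cells in 2i hold little methylation, and the genome gains it as cells move to the formative epiblast state that EpiLC represent. In the epiblast and its descendants, promoter methylation keeps many germline genes silent, and methylation on the allele from one parent controls imprinted genes. Most CpG-rich promoters are free of methylation whatever the state of the gene.

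A few promoter sequences show what the comparison turns on. Each is the run of 250 bases before a gene start, written 5′ to 3′ from RefSeq on GRCm38.p6, with every CpG in capitals, the site the deleted enzymes act on. The first belongs to 4930526I15Rik, a long noncoding RNA gene whose start lies in a tile called lower in DNMT_KO. The second is that of Dazl, an RNA-binding germ cell gene of the class silenced by methylation. The other two had the largest positive differences of their lists: Tdrd9, a helicase of the piRNA pathway, and Meg3, a maternally expressed noncoding RNA.
4930526I15Rik promoter, chr9:124423537-124423786, plus strand: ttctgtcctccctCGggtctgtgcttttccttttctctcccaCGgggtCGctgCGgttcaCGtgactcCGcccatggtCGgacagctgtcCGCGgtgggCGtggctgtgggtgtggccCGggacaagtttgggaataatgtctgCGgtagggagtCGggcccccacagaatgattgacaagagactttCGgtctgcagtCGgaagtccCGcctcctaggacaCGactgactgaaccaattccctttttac
Dazl promoter, chr17:50293621-50293870, minus strand: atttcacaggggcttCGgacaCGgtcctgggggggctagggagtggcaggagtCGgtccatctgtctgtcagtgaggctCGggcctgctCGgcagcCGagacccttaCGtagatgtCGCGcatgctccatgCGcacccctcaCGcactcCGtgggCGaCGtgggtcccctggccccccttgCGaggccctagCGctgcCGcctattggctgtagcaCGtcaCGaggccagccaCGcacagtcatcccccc
Tdrd9 promoter, chr12:111971309-111971558, plus strand: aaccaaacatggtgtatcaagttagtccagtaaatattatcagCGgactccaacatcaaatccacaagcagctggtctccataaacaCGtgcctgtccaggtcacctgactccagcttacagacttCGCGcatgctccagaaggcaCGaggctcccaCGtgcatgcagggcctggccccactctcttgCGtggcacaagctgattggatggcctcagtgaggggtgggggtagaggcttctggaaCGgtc
Meg3 promoter, chr12:109540746-109540995, plus strand: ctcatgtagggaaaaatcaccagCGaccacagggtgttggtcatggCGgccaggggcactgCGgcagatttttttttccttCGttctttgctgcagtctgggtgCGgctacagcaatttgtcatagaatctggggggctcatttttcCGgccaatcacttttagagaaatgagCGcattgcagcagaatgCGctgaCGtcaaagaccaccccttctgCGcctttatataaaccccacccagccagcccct
These runs hold 17, 20, 8 and 10 CpGs in that order.

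Few tiles differed between the lines at D1 beyond the spread pooled over all 35 libraries after quantile normalisation, and that count depended on the scaling. Of 127790 tested tiles, 2 were called at an adjusted p under 0.05 (0.00157%), and both were lower in DNMT_KO. None was called higher. A call here is by limma with a mean-variance trend over all libraries and Benjamini-Hochberg adjustment over all features of a level. Unadjusted limma p-values under 0.05 were reached by 8.54% of tiles, 5345 of them higher in DNMT_KO (4.18%) and 5574 lower (4.36%). Weighting each read count by a mean-variance trend (limma voom), weighting libraries by quality and thinning all libraries to 1 depth each called 0 tiles. With median centring in place of quantile normalisation limma called 453 tiles (45 higher, 408 lower), and with the values as deposited 88 (10 higher, 78 lower). Leaving out 1 library gave 0 to 20 tiles, with 15, 18 and 20 when DNMT_KO replicate 1, 2 or 3 was left out. At the tile with a gene start, 2 of 29214 genes were called (0.00685%), both from the same tile and both lower. Unadjusted limma p-values under 0.05 were reached by 8.67% of promoters, 1488 higher (5.09%) and 1046 lower (3.58%). Of 28643 gene neighbourhoods, the mean of tested tiles within 50 kb for which a promoter is the nearest, limma called none (0%), and 2488 had an unadjusted p under 0.05 (8.69%).

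**Figure D1:**
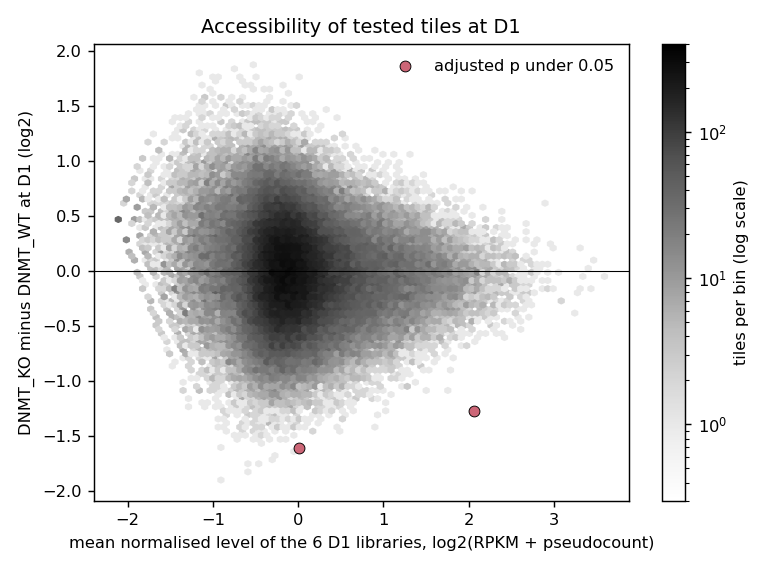
Difference between DNMT_KO and DNMT_WT at D1 (log2, vertical axis) against the mean normalised level of the 6 D1 libraries (log2 of RPKM plus a pseudocount, horizontal axis) for 127790 tested tiles, with shading for the number of tiles per bin on a log scale. The 2 circled tiles are those with an adjusted p under 0.05, at -1.61 and -1.27, and the cloud narrows from low to high levels.

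The libraries differed in depth and in spread. DNMT_WT libraries held 5595150, 6650508 and 3625804 reads in kept autosomal tiles, and DNMT_KO libraries 5627132, 3794468 and 3072327. The median tested tile had 9, 11 and 6 reads in DNMT_WT and 10, 7 and 5 in DNMT_KO. Only DNMT_KO replicate 1 was as deep as the deeper parental libraries. Empty tiles were more frequent in DNMT_KO at near equal depth. Of tested tiles, 0.91% were empty in DNMT_KO replicate 1 and 0.42% in DNMT_WT replicate 1. The shares were 2.92% in DNMT_KO replicate 2 and 1.24% in DNMT_WT replicate 3. Outside the tested tiles these pairs stood at 10.8% against 5.72% and 21.5% against 12.8%. The cause was not tested. DNMT_KO replicate 3, the shallowest, also had the highest share of mitochondrial reads (46.8%), whose part in the results was not tested. The median standard deviation of a tile between replicates was 0.438 log2 units in DNMT_KO at D1, the highest of the 12 groups of line and day, and 0.384 in DNMT_WT. Across tiles, replicates correlated at 0.58 to 0.61 within DNMT_WT, 0.42 to 0.52 within DNMT_KO and 0.50 to 0.58 between the lines. The fit uses 1 spread for all groups, so its errors are smaller than the DNMT_KO libraries alone would give, and no tile was called when the fit was limited to the D1 libraries. The median standard error of a difference was 0.36 log2 units per tile, 0.35 per promoter and 0.23 per neighbourhood. The 95% confidence interval lay within a 2-fold change for 51.6% of tiles, 56.0% of promoters and 78.3% of neighbourhoods. It lay within a 4-fold change for 99.6% of tiles. These intervals are on the scale with the pseudocount, which understates the change of tiles with few reads. They do not exclude larger changes in reads there.

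The targeted genes gave no check of the labels. Over the 27 tiles of Dnmt1, DNMT_WT libraries held 214, 297 and 167 reads and DNMT_KO libraries 186, 196 and 93. Scaled to tile length and library depth (RPKM) this was 0.708, 0.827 and 0.853 against 0.612, 0.957 and 0.561, and the groups overlapped. Dnmt3a held 479, 587 and 376 reads against 596, 360 and 227 over 58 tiles, and Dnmt3b 137, 137 and 92 against 138, 70 and 52 over 20 tiles. In 1 tile of Dnmt3b, chr2:153684001-153686000, chosen after its values were seen, the DNMT_WT libraries at D1 summed to 19 reads and the DNMT_KO libraries to 3. The sums were 15 and 16 at D0 and 29 and 21 at D2. A knockout can leave a gene's chromatin open, so accessibility does not check the label. At the promoters the differences were -0.51 ± 0.26 (SE) for Dnmt1, 0.37 ± 0.27 for Dnmt3a and 0.43 ± 0.28 for Dnmt3b, none of them called by limma (adjusted p = 0.58, 0.74 and 0.70).

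The first called tile lay inside Jam2, which encodes a junctional adhesion molecule of cell contacts and is often listed with naive pluripotency genes. On GRCm38 it is chr16:84778001-84780000, within the gene body and 4.88 kb from the gene end used as its promoter. DNMT_WT libraries held 17, 27 and 9 reads there and DNMT_KO libraries 6, 0 and 4. The RPKM values were 1.52, 2.03 and 1.24 against 0.533, 0 and 0.651. All DNMT_KO libraries lay below all DNMT_WT libraries. The normalised difference was -1.61 ± 0.30 log2 units (SE, 95% interval -2.21 to -1.01, n = 3 and 3, limma adjusted p = 0.0372). The call was lost without DNMT_WT replicate 1 (adjusted p = 0.107), DNMT_WT replicate 2 (0.166) or DNMT_KO replicate 2 (0.173, difference -1.13), each by limma. Background reads of chromosome 16, outside the tested tiles, were also lower in DNMT_KO at D1, with a difference of -0.110 log2 units and no overlap. With each chromosome centred the Jam2 difference was -1.56 (limma adjusted p = 0.0431).

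This Jam2 element was more open in naive cells and low in both lines at day 2. At D0 the RPKM values were 5.03, 4.91 and 3.10 in DNMT_WT and 1.64, 4.09 and 4.57 in DNMT_KO, and the groups overlapped. At D2 they were 0.741, 1.26 and 0.812 against 0.914, 0.632 and 0.997, overlapping again. The normalised difference between the lines was -0.53 at D0 and -0.14 at D2. From D0 to D1 the level fell by 1.25 in DNMT_WT and by 2.33 in DNMT_KO (limma adjusted p = 0.0109 and 2.1e-07), but day and processing cannot be told apart in those 2 values. The knockout difference at D1 was not shown to differ from that at D0 or D2 (limma interaction, adjusted p = 0.602 and 0.263). In the TET family the tile was also lower in the knockout at D1, by -0.77 (limma adjusted p = 0.364). The RPKM values there were 2.70, 5.02 and 3.95 in TET_WT and 1.46, 2.66 and 2.43 in TET_KO. The 2 families were not shown to differ at this tile (limma interaction, adjusted p = 0.568). The Jam2 promoter tile itself held 27, 24 and 17 reads in DNMT_WT and 20, 13 and 14 in DNMT_KO, with a difference of -0.37 ± 0.25 (limma adjusted p = 0.70).

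The second called tile, chr9:124422001-124424000, lay near the distal end of chromosome 9. It holds the starts of LOC108167694, a predicted protein-coding gene, and of 4930526I15Rik, whose promoter sequence is printed above. DNMT_WT libraries held 74, 83 and 41 reads and DNMT_KO libraries 23, 14 and 49. The RPKM values were 6.61, 6.24 and 5.65 in DNMT_WT and 2.04, 1.84 and 7.97 in DNMT_KO. On the RPKM scale DNMT_KO replicate 3 therefore lay above every parental library. After quantile normalisation the levels were 2.76, 2.89 and 2.45 against 1.04, 0.81 and 2.43, so that replicate 3 fell just under the lowest parental library. The difference was -1.27 ± 0.24 (SE, limma adjusted p = 0.0372 among tiles and 0.0176 among promoters). The tile call was lost when any library but DNMT_KO replicate 3 was left out (limma adjusted p = 0.053 to 0.149).

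The same tile was lower in DNMT_KO at the other days. At D0 the RPKM values were 6.96, 5.01 and 4.38 against 1.31, 3.29 and 3.48, with no overlap and a difference of -1.14 (limma adjusted p = 0.382). At D2 they were 5.37, 7.36 and 4.47 against 1.27, 1.35 and 1.63, with a difference of -1.85 (limma adjusted p = 9.69e-07). In the TET family the knockout difference at D1 was 0.15. Reads were fewer over the 11 tiles of chr9:124422001-124444000. This segment was placed from the called tile and includes it, with further tiles picked for a limma adjusted p under 0.1. It is therefore no separate support for the call. There the mean RPKM was 1.86 ± 0.16 (SD, n = 3) in DNMT_WT at D1 and 0.973 ± 0.53 in DNMT_KO, with single libraries at 1.97, 1.68 and 1.92 against 0.800, 0.551 and 1.57. The flanking 42 tiles stood at 0.319 ± 0.028 and 0.305 ± 0.042. Copy number of the segment and accessibility cannot be told apart from these reads.

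**Figure D2:**
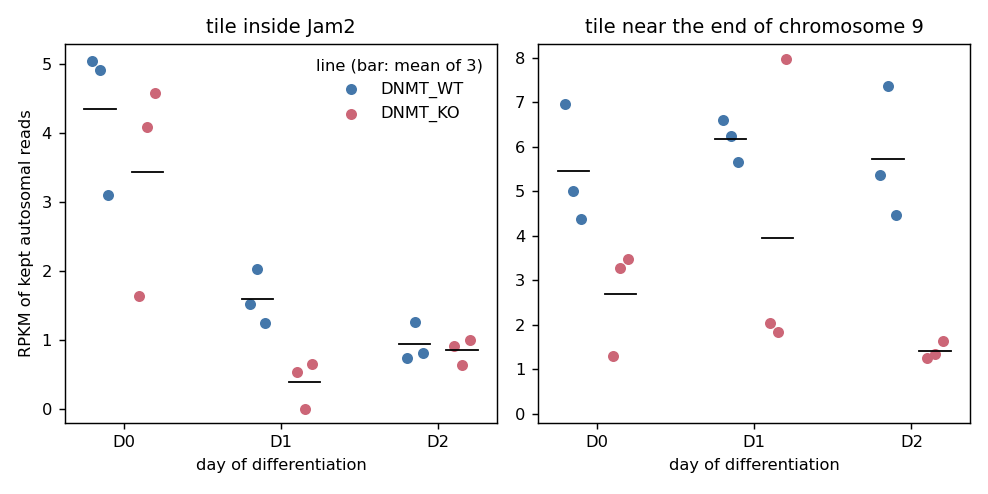
RPKM of kept autosomal reads (vertical axis) in each DNMT_WT and DNMT_KO library by day of differentiation (horizontal axis) for the tile inside Jam2 and the tile near the end of chromosome 9, with a bar at the mean of 3 libraries. In Jam2 the D1 groups are apart and the D0 and D2 groups overlap, while on chromosome 9 the DNMT_KO libraries are low at all days except replicate 3 at D1, at 7.97.

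Below the threshold stood 17 further tiles with a limma adjusted p under 0.1, and with the called ones they numbered 19, of which 6 were higher and 13 lower in DNMT_KO. They were singled out after their values were seen. In a tile inside Tmem230, which encodes a membrane protein of the secretory pathway, DNMT_WT libraries held 10, 8 and 9 reads and all 3 DNMT_KO libraries 0 (limma adjusted p = 0.070), so the size of its change is not given. At D0 its difference had the opposite sign, 0.95. A tile inside Sec24d, a COPII coat subunit, held 3, 4 and 3 reads in DNMT_WT and 24, 8 and 10 in DNMT_KO, and its difference was 1.69 (limma adjusted p = 0.052). Other tiles of this set lay inside Cbx5, a heterochromatin protein 1 family member (-1.75), inside Igfbp5, an insulin-like growth factor binding protein (-1.29), and near Notum, a secreted enzyme that inactivates Wnt (1.75). Of the 19 tiles, 7 had the same sign of difference at D0, 11 at D2 and 6 at both days, and 1 was called at D2, where 0.0274% of all tiles were called.

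Tiles with the smallest p-values at D1 were near evenly split in sign at the other days. Among the 210 tiles higher in DNMT_KO with an unadjusted p under 0.001, 51.0% were also higher at D0 and 48.6% at D2. Among the 265 lower tiles, 55.5% were also lower at D0 and 54.7% at D2. Over all tested tiles, 49.9% were higher in DNMT_KO at D0 and 50.7% at D2. The libraries of each day are separate, so these shares rest on other libraries than those that chose the tiles.

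**Figure D3:**
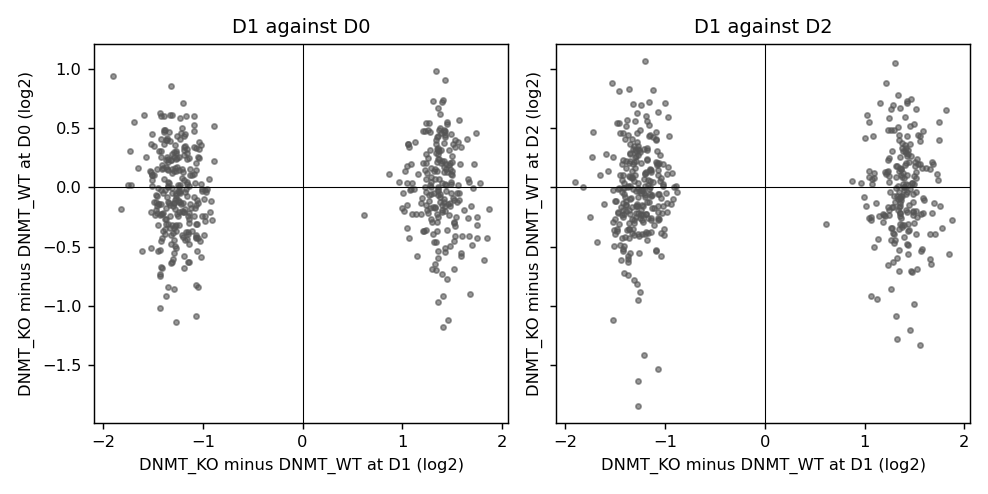
Difference between DNMT_KO and DNMT_WT (log2) at D0 and at D2 (vertical axes) against the difference at D1 (horizontal axes) for the 475 tiles with an unadjusted p under 0.001 at D1. The empty middle comes from choosing tiles on the D1 difference, and the points of either side spread above and below 0 on the vertical axes.

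Many more tiles passed the threshold between days than between the lines. Between D1 and D0, limma called 708 tiles higher and 1200 lower in DNMT_WT, and 534 and 1141 in DNMT_KO, though day and processing cannot be told apart in those counts. Tiles chosen, after values were seen, from TET_WT at D2 against D0 gave a set that shares no library with the D1 comparison: 1279 closing and 554 opening tiles. In the closing tiles, the median normalised level was 0.918 to 0.936 in DNMT_WT libraries at D0 and -0.086 to 0.022 at D1. In DNMT_KO libraries it was 0.824 to 0.903 at D0 and -0.113 to 0.048 at D1. The D1 ranges overlapped, and the median tile differed by -0.0045 between the lines. At an unadjusted limma p under 0.05, 72 closing tiles were higher in DNMT_KO and 68 lower (5.63% and 5.32%, against 4.18% and 4.36% of all tested tiles).

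The opening tiles also overlapped at D1. Their median level was 0.384, 0.462 and 0.245 in DNMT_WT libraries and 0.322, 0.081 and 0.508 in DNMT_KO libraries. DNMT_KO replicate 2 was the lowest and replicate 3 the highest of the 6. The median tile differed by -0.043 at D1, and at an unadjusted limma p under 0.05, 17 tiles were higher and 36 lower (3.07% and 6.50%, against 4.18% and 4.36% of all tested tiles). At D2 the same tiles stood at 0.531 to 0.640 in DNMT_WT and 0.103 to 0.370 in DNMT_KO, without overlap, with a median difference of -0.33. Whether the differences at D1 and D2 differ was not tested for this set.

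**Figure D4:**
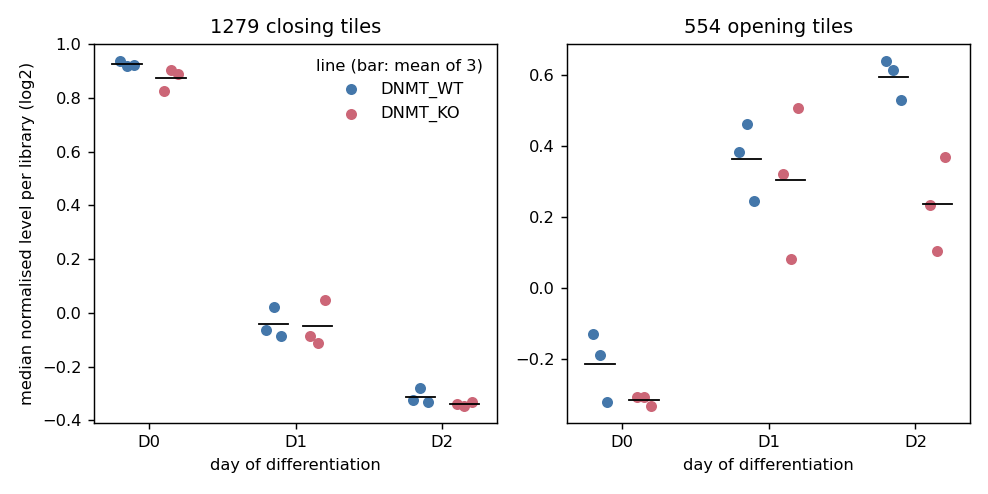
Median normalised level (log2, vertical axes) of 1279 closing and 554 opening tiles in each DNMT_WT and DNMT_KO library by day of differentiation (horizontal axes), with a bar at the mean of 3 libraries. The lines overlap at D1 in both sets, and in the opening tiles they are apart at D2.

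Of 337 genes in 19 lists, 296 had a promoter tile, and limma called no promoter and no neighbourhood of any list at D1, against 0.00685% of all promoters and 0% of all neighbourhoods. The median difference of all promoters was 0.032. Germline genes silenced by promoter methylation, the class most tied to these enzymes, had 39 of 40 members measured. Their median was 0.057, with 22 positive differences, and 1 member reached an unadjusted limma p under 0.05, as did 8.67% of all promoters. The median was 0.026 at D0 and 0.126 at D2. At D1 the libraries did not overlap for 5 germline promoters that were higher in DNMT_KO and 1 that was lower, against 5.97% and 4% of all promoters. On the scale with the pseudocount, the 95% interval lay within a 2-fold change for 28 of the 39. For 29 its upper end was below a 2-fold rise. That scale understates the change of tiles with few reads, so a 2-fold rise in reads is not excluded at such promoters.

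Germline promoters with the most reads showed overlapping lines. The promoter of Dazl held 30, 33 and 16 reads in DNMT_WT and 21, 16 and 26 in DNMT_KO, with a difference of -0.21 ± 0.25 (95% interval -0.71 to 0.28, limma adjusted p = 0.87). Stag3, a meiotic cohesin subunit, held 42, 52 and 26 reads against 41, 26 and 33, and its difference was -0.18 ± 0.22. Zcwpw1, a reader of histone marks at meiotic break sites, held 47, 29 and 37 against 59, 45 and 31, with 0.30 ± 0.23. Dnmt3l, the catalytically inactive partner of Dnmt3a and Dnmt3b, held 31, 34 and 40 against 41, 36 and 12, with -0.24 ± 0.28, and DNMT_KO replicate 3 was lowest. D1Pas1, a testis RNA helicase of the DEAD-box family, held 36, 42 and 11 against 20, 19 and 27, with -0.16 ± 0.30. Library ranges overlapped for each of these 5 promoters. The signs of Dazl, Stag3, Dnmt3l and D1Pas1 turned under 1 to 5 of 20 alternative settings.

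Tdrd9 had the largest difference of the germline list. Its promoter tile held 8, 3 and 0 reads in DNMT_WT and 11, 9 and 5 in DNMT_KO, so the normalised levels did not overlap. The difference was 1.36 ± 0.40 (95% interval 0.56 to 2.16), short of a call (limma adjusted p = 0.277), and stood at 0.33 at D0 and -0.13 at D2. Tdrd9 lies on chromosome 12, where background reads differed by 0.075 log2 units at D1 and the median tested tile by 0.094. Sycp3, a component of the synaptonemal complex, held 9, 11 and 8 reads against 6, 4 and 4, with -0.42 ± 0.33 (limma adjusted p = 0.76). Ddx4, the germ cell helicase Vasa, held 9, 10 and 8 against 11, 4 and 3, with -0.26 ± 0.33 (limma adjusted p = 0.88).

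Imprinted genes were split by the parent whose allele carries the methylation. At maternally methylated regions, 25 of 27 genes were measured, their median difference was 0.133 and 15 were positive. The median was 0.249 at D0 and 0.268 at D2. Zdbf2 held 37, 20 and 16 reads in DNMT_WT and 44, 36 and 21 in DNMT_KO, with 0.59 ± 0.26. Plagl1, a zinc finger transcription factor, held 13, 15 and 4 against 19, 12 and 13, with 0.69 ± 0.29. Snrpn, a splicing protein gene of the Prader-Willi region, held 19, 32 and 11 against 30, 19 and 28, with 0.46 ± 0.29. Kcnq1ot1, an antisense noncoding RNA that silences its neighbours, held 30, 19 and 14 against 33, 15 and 26, with 0.28 ± 0.27. The differences of Inpp5f (-0.22 ± 0.23) and Peg10 (-0.13 ± 0.29) were below 0. After normalisation the libraries of the lines did not overlap for Plagl1 and overlapped for the other 5. On the RPKM scale those of Zdbf2 did not overlap either, with at most 3.31 in DNMT_WT and at least 3.42 in DNMT_KO. Of the 25 promoters, 1 did not overlap with DNMT_KO higher and 1 with DNMT_KO lower, against 5.97% and 4% of all promoters, after normalisation. None of these 6 was called (limma adjusted p from 0.47 to 0.94).

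At paternally methylated regions all 7 measured genes of 8 had positive differences, with a median of 0.460 at D1, 0.042 at D0 and 0.165 at D2. In the TET family the median of these promoters at D1 was 0.307. Meg3 had the largest difference. Its promoter held 11, 3 and 3 reads in DNMT_WT and 21, 17 and 4 in DNMT_KO, or RPKM of 0.983, 0.226 and 0.414 against 1.87, 2.24 and 0.651. DNMT_KO replicates 1 and 2 were above all parental libraries, and replicate 3 was not. The difference was 1.28 ± 0.34 (limma adjusted p = 0.228), and without DNMT_KO replicate 3 it was 1.66 and passed the threshold (limma adjusted p = 0.0380).

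Of the 7 genes, 4, namely Dlk1, Meg3, Rian and Mirg, share the imprinted cluster on chromosome 12 and are not independent of each other. Over neighbourhoods, the mean of 9 tiles at Meg3 was -0.17, -0.33 and -0.52 in DNMT_WT and 0.48, 0.29 and 0.01 in DNMT_KO, without overlap. The difference was 0.60 ± 0.15 (limma adjusted p = 0.17). The neighbourhoods of Dlk1, a Notch ligand relative, at 0.49 ± 0.14, and Mirg, a microRNA host gene, at 0.65 ± 0.19, did not overlap between the lines either (limma adjusted p = 0.30 and 0.28). Non-overlap with DNMT_KO higher was found for 5.83% of all neighbourhoods. Background reads of chromosome 12 differed by 0.075 log2 units. DNMT_KO replicates 2 and 3 lay above all DNMT_WT libraries, and replicate 1 lay within their range. The median tested tile of this chromosome differed by 0.094, the largest of any autosome. With each chromosome centred, the median of the 7 promoters was 0.435. Outside this cluster, the promoter differences were 0.30 ± 0.30 for the growth factor gene Igf2, 0.25 ± 0.36 for the noncoding RNA H19 and 0.13 ± 0.35 for Rasgrf1. Igf2 and H19 share an imprinted domain and are not independent of each other either.

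No pluripotency gene was called. Naive genes had a median promoter difference of -0.023 over 20 members. For 19 of them the 95% interval, on the scale with the pseudocount, lay within a 2-fold change. So it did for 8 of 10 core and 18 of 22 formative genes. The median was -0.103 for 10 core pluripotency genes and 0.046 for 22 formative genes, and each of these 3 medians changed sign under 2 to 6 of 20 alternative settings. The genes named next were chosen after their values were seen. Klf2, a naive transcription factor, held 25, 37 and 27 reads in DNMT_WT and 60, 35 and 27 in DNMT_KO, with 0.43 ± 0.23. Zfp42, a naive marker, held 52, 46 and 42 against 41, 20 and 47, with -0.45 ± 0.23. Nanog held 16, 14 and 9 against 22, 5 and 14, with 0.15 ± 0.29, and Pou5f1, which encodes Oct4, 16, 19 and 11 against 24, 10 and 7, with -0.08 ± 0.30. Nodal, a growth factor of the epiblast, held 38, 27 and 33 against 33, 11 and 16, with -0.70 ± 0.25. The formative genes Fgf5 (0.18 ± 0.29) and Otx2 (0.27 ± 0.33) overlapped between the lines. Limma adjusted p-values of these 7 promoters ran from 0.42 to 0.97.

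Lists for other cell types and pathways also held no called gene, though with median centring limma called the neighbourhoods of Notum and Cdx1, both in the Wnt response list. Medians were 0.151 for 21 haematopoietic regulators, the lineage named in the series title, 0.110 for 14 primitive streak genes, -0.045 for 14 neuroectoderm genes, 0.218 for 12 primitive endoderm genes and -0.059 for 15 trophoblast genes. The fibroblast list, which would mark feeder cells, stood at 0.235 over 13 genes at promoters and 0.00096 over their neighbourhoods. Two-cell-like genes had 9 of 17 members measured and a median of 0.083. Medians for interferon and viral-mimicry genes (-0.036), Hox genes (-0.100), Wnt response (0.159), MAPK response (-0.028), methylation machinery (0.042) and housekeeping genes (0.071) lay between -0.100 and 0.159.

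**Figure D5:**
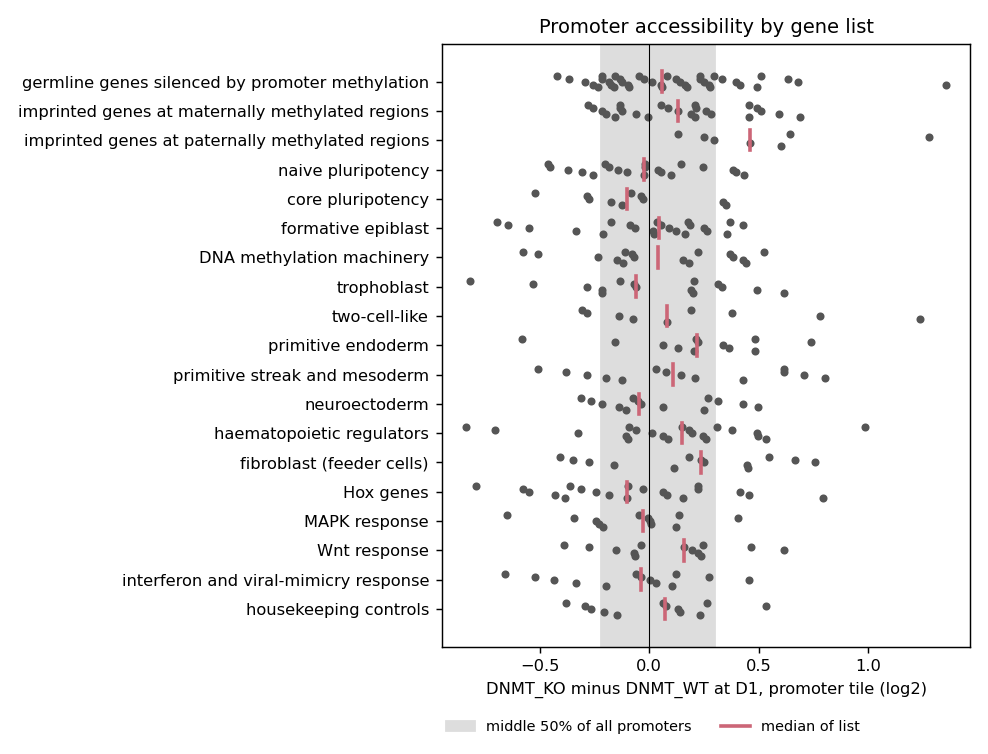
Promoter difference between DNMT_KO and DNMT_WT at D1 (log2, horizontal axis) for each measured gene of 19 lists (rows, 1 point per gene), with the median of each list as a bar and the middle 50% of all promoters shaded. Most points lie near 0, the germline and paternally methylated lists each have 1 gene over 1, Tdrd9 at 1.36 and Meg3 at 1.28, and none was called.

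Promoter CpG content was set against the D1 difference over 25134 RefSeq windows of 300 bases, from 250 before a gene start to 50 after it. Windows with 0 to 4 CpGs had a median difference of 0.12 (9126 genes), those with 5 to 14 had 0.031 (6603) and those with 15 or more had -0.020 (9405), but all 3 signs turned under median centring (-0.149, -0.069 and 0.081) and with the values as deposited (-0.065, -0.014 and 0.145). No direction can be read from CpG content, since it moved with the scaling. Windows of germline genes held a median of 20 CpGs, against 8 over all windows.

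Motifs with a CpG in them were searched in the same windows on both strands. The letters GCGCATGC, or GCATGCGC on the other strand (the reverse complement), come from the site of NRF1, a factor known to be blocked by methylation. They occurred in 725 windows (2.88%, and 2.71% of all 32851 windows in the table), with a median difference of 0.010. TGACGTCA, the cAMP response element, occurred in 479 (1.91%, and 1.79% of the table), with -0.039. CACGTG, the E-box bound by Myc, Max and related factors, occurred in 1843 (7.33%, and 7.15% of the table), with 0.013. The 3 motifs do not contain each other, and a match is a description of letters, not a bound site. Of 35 germline windows 16 held the E-box and 9 the NRF1 letters. The E-box letters occur in the windows of 4930526I15Rik and Tdrd9, the NRF1 letters in those of Dazl and Tdrd9, and TGACGTCA in that of Meg3.

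The knockout difference at D1 was also set against that at other days and in the other family. No tile differed from D0 by the limma interaction, with 8991 tiles at an unadjusted p under 0.05 (7.04%) and a smallest adjusted p of 0.126. Voom and thinned reads also gave 0. From D2, 2 tiles differed (0.00157%), and none with thinned reads or voom. The tile at the start of Gadd45gip1, a subunit of the mitochondrial ribosome, stood at -0.90 at D1 and 1.20 at D2 (difference -2.10, limma adjusted p = 0.0425). A tile on chromosome 15 inside Ank, a pyrophosphate transporter gene, stood at 1.33 at D1 and -1.28 at D2 (difference 2.61, limma adjusted p = 0.0425). Between the families at D1, 31 tiles differed (0.0243%), 13 with the DNMT difference above the TET difference and 18 below. The count was 3 with thinned reads, 16 with voom, 94 with median centring and 19 to 90 with 1 library left out, lowest without DNMT_WT replicate 2 and highest without DNMT_KO replicate 3. Of these, 20 were themselves called in the TET family and none in the DNMT family. In the TET family limma called 128 tiles at D1 (0.1%), 56 higher and 72 lower.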

How the data were processed

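The deposited matrix gives 2-kb tiles of GRCm38 in log2 RPKM per the file headers, that is reads scaled to tile length and library total on a log2 scale by the authors. The submitters' processing notes list Bowtie2 2.4.1, Trim Galore 0.6.5 and cutadapt 2.3. Treatment of duplicates: not given in the sources used here. Values were whole multiples of 1 read within a tolerance of 0.01 read, with empty tiles at 0.9 read, and reads were recovered from them. At D1 the tile sums were 2.05 times the library total behind the RPKM, alike in both lines. They included mitochondrial reads: 26.9, 28.8 and 9.90% in DNMT_WT and 12.3, 6.03 and 46.8% in DNMT_KO.

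Of 1231362 autosomal tiles, 75678 were empty in every D0 and D2 library and left out. RPKM was rescaled to the kept autosomal reads, given a pseudocount of 0.163 RPKM (1 read in the shallowest compared library), put on the log2 scale and quantile normalised. Differences on this scale understate the change of tiles with few reads. Tested tiles were the highest 10% by mean and every tile with a gene start from RefSeq. For 4080 genes without a listed start the more accessible gene end was used. limma 3.58.1 (R 4.3.3) fitted 12 group means over 35 libraries (23 residual degrees of freedom), 2-sided, with a call at an adjusted p under 0.05. The fit was tested on simulated data, where changes of 2-fold were mostly missed and the share of false calls was above the nominal level, so single calls carry that risk. Named features were the called ones, the targeted genes and members of the germline and imprinted lists. Many of these members had high levels, but Tdrd9 and Meg3 were named for their large differences, after values were seen. Sycp3 and Ddx4 held few reads. Other features are marked as chosen after their values were seen. Members and lists were chosen with earlier results of these data known. Each comparison was repeated under 20 alternative settings.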

Additional observations from a re-analysis of the deposited data

Results flagged for a closer look

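The knockout difference in the DNMT family differed between D1 and D2 at 2 tiles and at 2 promoters by the limma interaction test. The tile at Gadd45gip1, chr8:84832001-84834000, differed by -2.10 log2 units between the days and also made 1 of the 2 promoters. The tile inside Ank, nearest the start of Otulin, chr15:27592001-27594000, differed by 2.61. The other promoter was that of Olfr382, an olfactory receptor, at 1.56 on D1 and -1.33 on D2 (limma adjusted p = 0.0369). At D1 its tile held only 1, 2 and 0 reads in DNMT_WT and 7, 5 and 3 in DNMT_KO, so the size of its change is uncertain. Between the DNMT and TET families at D1, the knockout difference was unequal at 31 tiles, 2 promoters and 37 neighbourhoods. The 2 promoters were Gm42252 (-0.86 in the DNMT family and 1.86 in the TET family) and Gm8493 (-0.44 and 1.79), each called in the TET family alone.

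Signal outside the main measurement was also found. Mitochondrial reads made up 46.8% of DNMT_KO replicate 3 at D1 and were absent from the D0 and D2 columns. A further 21220 autosomal tiles held reads at D1 and none in any D0 or D2 library, with 34667 to 88879 reads per DNMT_WT library and 35404 to 57058 per DNMT_KO library. Neither enters the main comparisons. The setting with values as deposited keeps the authors' library totals. At D1 the tile sums, 2.05 times those totals in every compared library, included mitochondrial reads.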

How the results depend on the processing

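Tile calls between DNMT_KO and DNMT_WT at D1 were few under most settings and many under some. The count of 2 became 11 with a pseudocount 4 times smaller (4 higher, 7 lower), 1 with one 4 times larger, 6 with chromosomes centred and 8 with no filter on the mean. It became 453 with median centring (45 higher, 408 lower) and 88 with the values as deposited (10 higher, 78 lower). It was 0 with thinned reads, voom, quality weights, D1 libraries only or the 6 compared libraries only. Promoter calls, 2 in the report, were 20 with median centring (1 higher, 19 lower), 1 as deposited, 7 with no filter, and 0 with thinned reads, voom, quality weights, D1 libraries only or the 6 libraries only. Neighbourhood calls, 0 in the report, were 105 with median centring (12 higher, 93 lower), 2 as deposited and 10 with no filter. The cause of these shifts was not tested.

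Leaving out 1 library at a time gave 0 to 20 tiles, 0 to 18 promoters and 0 to 4 neighbourhoods. The most tiles came without DNMT_KO replicate 1 (15), 2 (18) or 3 (20), and the most promoters without DNMT_KO replicate 3. The D1 minus D0 interaction, 0 in the report, gave 2 tiles with median centring, 1 with chromosomes centred and 0 to 4 with 1 library left out. The D1 minus D2 interaction gave 0 with thinned reads or voom and 0 to 12 with 1 library left out, 12 being without DNMT_KO replicate 2. The difference between families gave 94 with median centring, 17 with chromosomes centred, 50 with the highest 5% of tiles, 3 with thinned reads, 16 with voom and 19 to 90 with 1 library left out, 90 being without DNMT_KO replicate 3.

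The replicate block did not rest on paired libraries: deviations of same-numbered libraries correlated at -0.004, -0.042 and -0.062. With the block, tile calls at D1 and for D1 minus D2 were 0 and neighbourhood calls 1. The Jam2 tile kept its sign in all 20 alternatives (-2.57 to -1.05) and its call in 10, and the chromosome 9 tile its sign in all 20 (-1.76 to -0.97) and its call in 7. Over named features, 734 alternative values kept the call or its lack, 45 lost it and 1 gained it. Most of the 734 belong to features not called in the report. All 45 losses fell on the Jam2 tile, the chromosome 9 tile and the 2 promoters in that chromosome 9 tile. Each of these promoters kept its call in 9 of 20 alternatives. The median of all promoters stayed between -0.042 and 0.068. List medians kept their sign in all 20 for the maternally and paternally methylated, primitive endoderm, haematopoietic, fibroblast and Hox lists. Naive and core medians turned positive with median centring (0.075 and 0.008).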
